A study of Homo sapiens with 4 samples.

Results

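The thrombospondin genes THBS1, THBS2, THBS3, THBS4 and COMP and the VEGF family genes VEGFA, VEGFB, VEGFC and PGF were followed through the induction of p53 in a lung cancer cell line. The 9 genes were taken by symbol from the probe sets annotated with exactly 1 gene. Each of the 9 had 1 such probe set, among 18417 genes measured in all. The cells were H1299, which come from a human non-small cell lung carcinoma and have no p53 of their own. They stably carried mouse p53 under tet-on control, so that doxycycline switches the transgene on. Both groups carried the construct and grew in medium with 10% tet-free serum. The 2 uninduced arrays came from the line before induction and the 2 induced arrays from the same line given 0.5 µg/mL doxycycline for 24 hours. The labels call the 2 arrays of a group technical replicates and do not say whether the line is 1 clone. The p-values and intervals rest on the spread between arrays alone. Doxycycline and p53 cannot be told apart, because no array of cells given doxycycline without the construct was analysed here.

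Thrombospondins are secreted glycoproteins of the extracellular matrix that bind calcium. THBS1 and THBS2 form trimers whose type 1 repeats bind the receptor CD36 on endothelial cells and restrain vessel growth, whereas THBS3, THBS4 and COMP form pentamers without those repeats. The VEGF family are secreted dimeric growth factors. VEGFA acts on endothelial cells mainly through the receptor KDR, VEGFB and PGF bind FLT1, and VEGFC drives lymphatic vessel growth through FLT4. THBS1 is among the genes described as induced by p53, and VEGFA is a well known gene induced by low oxygen.

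On the induced arrays CDKN1A, which encodes p21, was 10.8-fold higher and MDM2, the ubiquitin ligase for p53, was 7.39-fold higher, and both passed the test. Over all 18417 genes, the correlation between the arrays of a group was 0.997 uninduced and 0.995 induced, against 0.917 to 0.921 between groups (genes are not independent replicates). The epithelial keratin genes KRT8 and KRT18 and the intermediate filament gene VIM had uninduced means of 9.49, 11.13 and 12.72 log2 units. The keratin gene KRT7 had a lower one of 7.915. After induction KRT8 rose 2.21-fold and VIM fell 1.32-fold, while KRT18 and KRT7 did not pass the test. The epithelial adhesion genes CDH1 and EPCAM read 5.88 and 5.45, and the lung lineage genes NKX2-1 and NAPSA 6.18 and 6.53. These and KRT7 lay within the range of markers of cells the culture should not hold. Those markers were 17 endothelial, blood and fibroblast genes, with uninduced means from 3.53 to 7.96 log2 units and a median of 6.41. The median uninduced mean over all genes was 7.73, so a level within this range is not by itself a background level. Of the 17, 14 did not pass the test, while 2 rose and 1 fell. The log2 of their summed level was 9.40 and 9.32 uninduced and 9.47 and 9.32 induced for endothelial markers, 8.18 and 8.07 against 8.23 and 8.09 for blood, and 9.05 and 9.02 against 9.08 and 9.01 for fibroblasts. Between the groups these summed levels moved by less than the difference between arrays of a group.

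The 250 bases before the transcription start are shown for the 3 genes that passed the test, THBS1, VEGFC and PGF, and for THBS2, the closest relative of THBS1, which did not. They are RefSeq sequences of GRCh38.p14, written 5′ to 3′ on the strand of the gene. The THBS1 window is chr15:39580829-39581078 on the plus strand, that of THBS2 chr6:169253847-169254096, that of VEGFC chr4:176792923-176793172 and that of PGF chr14:74955765-74956014, all 3 on the minus strand. PGF has a second annotated start, not shown. Capitals mark matches, on either strand, to the GC box GGGCGG bound by SP1, the CCAAT box, the HIF core ACGTG, the EGR1 site GCGNGGGCG, the AP-1 site TGANTCA and the p53 decamer. The decamer is RRRCWWGYYY, where R is A or G, W is A or T and Y is C or T. A single decamer was searched for, not a pair.
THBS1: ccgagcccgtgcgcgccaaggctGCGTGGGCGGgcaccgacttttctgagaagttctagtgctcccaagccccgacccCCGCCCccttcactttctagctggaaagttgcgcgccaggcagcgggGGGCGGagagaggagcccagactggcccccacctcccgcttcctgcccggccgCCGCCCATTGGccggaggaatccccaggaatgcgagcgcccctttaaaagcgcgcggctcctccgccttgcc
THBS2: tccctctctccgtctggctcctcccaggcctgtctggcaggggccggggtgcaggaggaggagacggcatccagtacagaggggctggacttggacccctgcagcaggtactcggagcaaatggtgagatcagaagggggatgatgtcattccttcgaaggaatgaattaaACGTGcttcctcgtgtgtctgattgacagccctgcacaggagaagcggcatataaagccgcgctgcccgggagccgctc
VEGFC: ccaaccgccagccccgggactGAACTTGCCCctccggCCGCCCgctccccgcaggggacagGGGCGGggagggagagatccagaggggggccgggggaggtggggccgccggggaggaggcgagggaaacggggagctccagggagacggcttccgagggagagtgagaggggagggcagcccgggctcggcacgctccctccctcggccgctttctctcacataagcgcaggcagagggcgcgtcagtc
PGF: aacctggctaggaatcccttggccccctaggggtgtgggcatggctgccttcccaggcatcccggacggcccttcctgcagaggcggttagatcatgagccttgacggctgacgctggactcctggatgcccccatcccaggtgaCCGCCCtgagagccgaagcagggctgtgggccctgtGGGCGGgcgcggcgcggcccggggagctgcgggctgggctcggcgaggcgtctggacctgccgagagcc

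The THBS1 window held 4 GC boxes, 1 CCAAT box and 1 EGR1 site, and the EGR1 site, from 227 to 219 bases before the start, overlaps the most distant GC box. THBS2 had none of these and 1 HIF core. VEGFC had 2 GC boxes and 1 p53 decamer, from 229 to 220 bases before the start, and PGF had 2 GC boxes. The windows also differed in base content, with 69.6% G or C for THBS1, 74.0% for VEGFC, 70.8% for PGF and 60.0% for THBS2. The median over all windows was 58.0%. GC boxes were common, in 42.6% of 35114 windows of this length in the table, CCAAT boxes stood in 32.0%, HIF cores in 18.5%, EGR1 sites in 8.41%, AP-1 sites in 6.57% and p53 decamers in 5.57%. Windows were found for 8 of the 9 genes, all but VEGFA. Among them an EGR1 site was also in those of THBS4 and VEGFB, and the VEGFC window was the only one of these 8 genes with a p53 decamer. A match describes the letters alone, and a window without one says nothing of the factor elsewhere.

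THBS1 was the member with the largest change, and it fell. Its probe set (7982597) read 10.34 and 10.38 log2 units on the uninduced arrays and 8.46 and 8.43 on the induced arrays. Both induced arrays lay far below both uninduced ones, and the SD within a group was 0.028 and 0.021. The level was 3.77-fold lower after induction (95% interval 3.30 to 4.31), a log2 fold change of -1.92 (SE 0.082, limma's moderated test, adjusted p = 2.3e-06). Of all genes, 96.7% had a smaller absolute change. In RNA of a whole culture, less transcript in every cell and fewer cells that express the gene cannot be told apart. The call held in each of 11 alternative settings, with log2 fold changes from -1.94 to -1.86.

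No other thrombospondin gene passed the test. THBS2, a trimeric relative also known as an inhibitor of vessel growth, read 6.48 and 6.25 uninduced and 6.51 and 6.26 induced. The groups overlapped, and the log2 fold change was 0.02 (95% interval -0.26 to 0.30). A change of the array value of more than 1.23-fold in either direction lies outside this interval, which covers the spread between arrays alone. THBS3, a pentameric member, read 8.27 and 8.21 uninduced and 8.38 and 8.53 induced. Both induced arrays lay above both uninduced ones, but the log2 fold change of 0.21 (SE 0.091) had an adjusted p of 0.0985 in limma's test. It passed after the arrays were quantile normalized again (adjusted p = 0.0253) and after dim genes were left out of limma's fit (adjusted p = 0.0457).

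THBS4, a thrombospondin of tendon and muscle, read 6.52 and 6.75 uninduced and 6.89 and 6.73 induced, and COMP, the cartilage oligomeric matrix protein, 7.11 and 7.18 against 7.24 and 7.14. In both genes the groups overlapped. Their log2 fold changes were 0.17 (95% interval -0.08 to 0.43) and 0.04 (95% interval -0.16 to 0.25). THBS2, THBS4 and COMP were below the 40th percentile of mean level, with values within the range of the 17 markers of other cell types, where an array compresses fold changes. The sign for THBS2 and COMP is therefore not settled, and it turned when 1 array was left out, for THBS2 to -0.11 without induced array 1 and -0.10 without uninduced array 2, and for COMP to -0.005 without induced array 1.

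**Figure D1:**
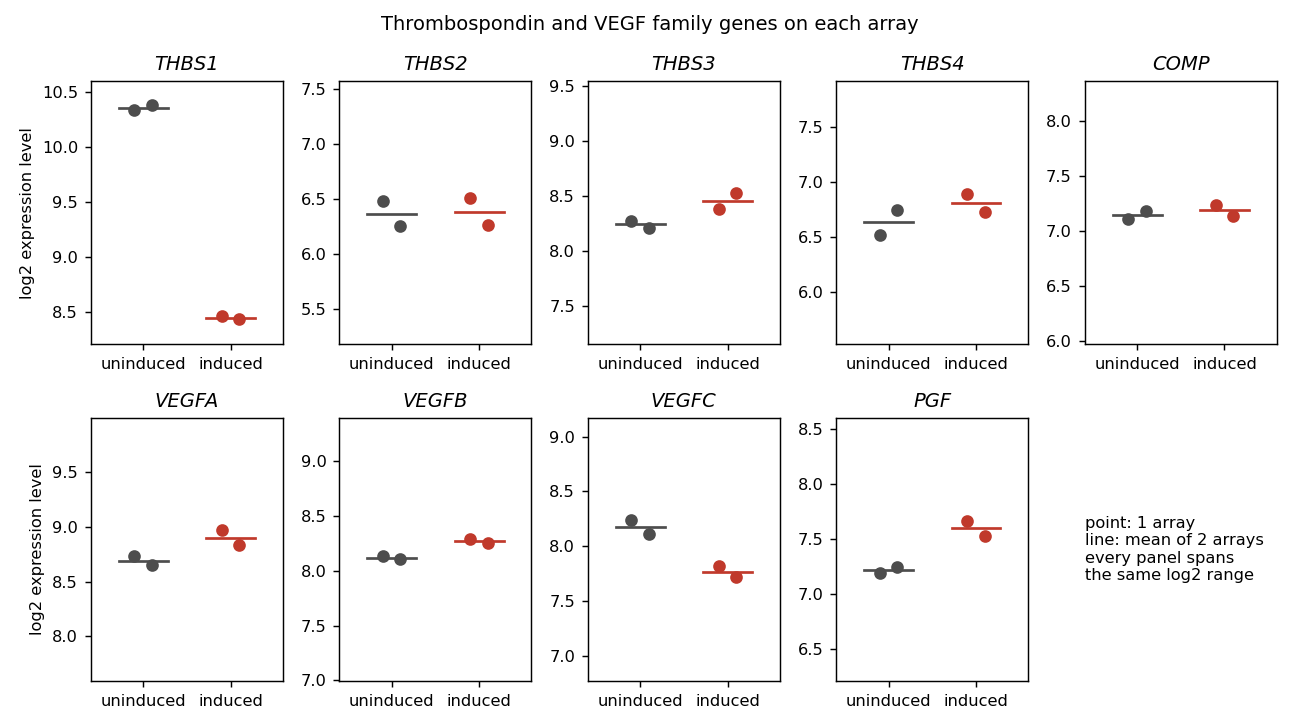
Expression level (log2 units, vertical axis) of each of the 9 genes on the 2 uninduced and 2 induced arrays; each point is 1 array and each line the mean of 2. Panels span equal log2 ranges but start at different levels, since levels of different probe sets are not comparable. THBS1 drops from 10.34 and 10.38 to 8.46 and 8.43, and the other 8 genes move by 0.41 log2 units or less.

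Among the VEGF genes, VEGFC fell and PGF rose, both by little. VEGFC, the lymphangiogenic ligand, read 8.24 and 8.11 uninduced and 7.82 and 7.72 induced. Both induced arrays were below both uninduced ones, and the level was 1.32-fold lower (95% interval 1.14 to 1.54, log2 fold change -0.40, SE 0.091, adjusted p = 0.00805 in limma's test). PGF, placental growth factor, read 7.19 and 7.24 uninduced and 7.66 and 7.53 induced. Again the groups did not overlap, and the level was 1.30-fold higher (log2 fold change 0.38, SE 0.089, 95% interval 0.17 to 0.59, adjusted p = 0.00938 in limma's test). Neither call was firm. That of VEGFC was lost whichever array was left out, with adjusted p-values in limma's fit of 0.118 and 0.0644 without uninduced arrays 1 and 2 and 0.0543 and 0.0801 without induced arrays 1 and 2. That of PGF was lost without uninduced array 1 (adjusted p = 0.123), uninduced array 2 (0.0975) or induced array 1 (0.0519), all by limma, and kept without induced array 2 (0.0292). The levels of PGF, and those of VEGFC when induced, lay within the range of the 17 markers of other cell types.

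VEGFA, the main angiogenic ligand, read 8.73 and 8.65 uninduced and 8.97 and 8.83 induced. The induced arrays were both higher, by less than VEGFC and PGF moved. Its log2 fold change was 0.21 (SE 0.091; 95% interval 0.997-fold to 1.34-fold), with an adjusted p of 0.106 in limma's test. It passed when each array was centred on its median (adjusted p = 0.0438) or dim genes were left out (0.0496, limma). VEGFB, a ligand of FLT1, read 8.13 and 8.11 uninduced and 8.29 and 8.25 induced. Its arrays also did not overlap, with the smallest SD of the 4 VEGF genes in each group, and the log2 fold change was 0.15 (SE 0.081, adjusted p = 0.190 by limma, and 0.0422 after quantile normalization again). The 95% intervals of VEGFA and VEGFB leave out a fall beyond 1.03-fold and a rise beyond 1.34-fold.

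Of the 9 genes, 3 passed the test, or 33.3%, where 45.1% of all 18417 genes did. THBS1 and VEGFC were lower (22.2% of members, against 24.6% of all genes) and PGF was higher (11.1%, against 20.6%). THBS1 was the member called with at least a 2-fold change, 1 of 9, beside 13.2% of all genes in either direction and 6.77% lower. Groups of arrays did not overlap in 6 of 9 members (66.7%), beside 66.8% of all genes, 4 of them higher when induced (32.5% of all genes) and 2 lower (34.3%). With 9 members these shares are near the background. Which of the 2 shares called is larger turned with the processing, to 55.6% of members against 46.2% of all genes after quantile normalization again, and to 83.3% of the 6 members left against 68.0% without dim genes. The median log2 fold change was 0.15 over the members and 0.00 over all genes, and 7 of the 9 members had a value above 0.

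**Figure D2:**
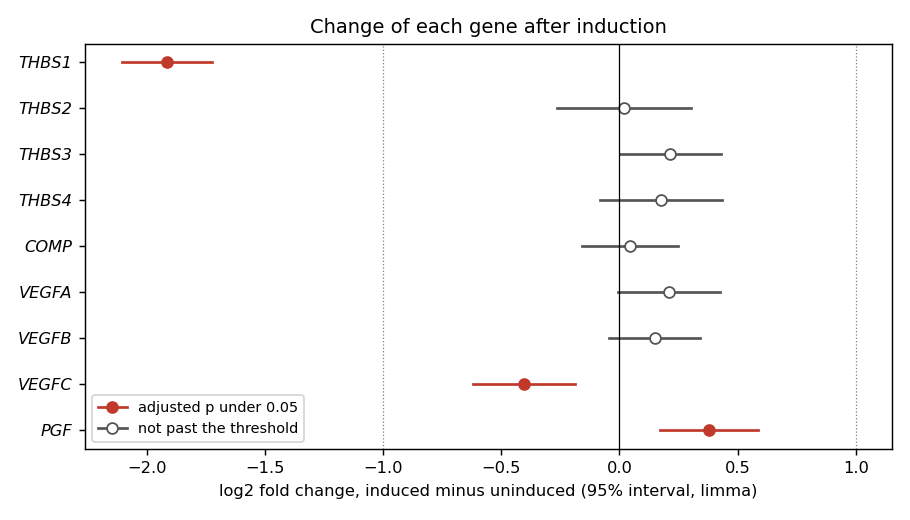
Log2 fold change of each gene, induced minus uninduced (horizontal axis), with its 95% interval from limma; filled red points passed an adjusted p of 0.05 and dotted lines mark 2-fold changes. THBS1 lies at -1.92, beyond the 2-fold line, VEGFC at -0.40 and PGF at 0.38.

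Ratios between pairs of members were also taken within each array. From uninduced to induced arrays, the log2 ratio of THBS1 to THBS2 moved by -1.93, with a gap of -1.69 between the nearest arrays of the groups, and that of THBS1 to VEGFA by -2.12, with a gap of -2.01. The ratio of the ligands VEGFC to VEGFA moved by -0.61 (gap -0.57) and that of VEGFC to PGF by -0.78 (gap -0.68). A 2-sided exact permutation test on 2 against 2 arrays gave p = 0.333 for each of these 4 pairs, also after Benjamini-Hochberg adjustment. As 0.333 is the smallest p that this design allows, the test could not decide whether the members of a pair changed unequally.

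The calls of the smaller changes depended on the processing, as the plot of the settings shows. THBS1 stayed between -1.94 and -1.86 throughout. Log2 fold changes ranged from -0.47 to -0.32 for VEGFC, 0.32 to 0.45 for PGF, 0.14 to 0.29 for THBS3, 0.14 to 0.28 for VEGFA and 0.13 to 0.24 for VEGFB. The direction of these 5 was kept in every setting run. Whether VEGFA, VEGFB and THBS3 passed the test changed with the scaling or the filter on dim genes; scaling again shifted the median of all genes by 0.035 (quantile) or 0.050 (median centring) log2 units.

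**Figure D3:**
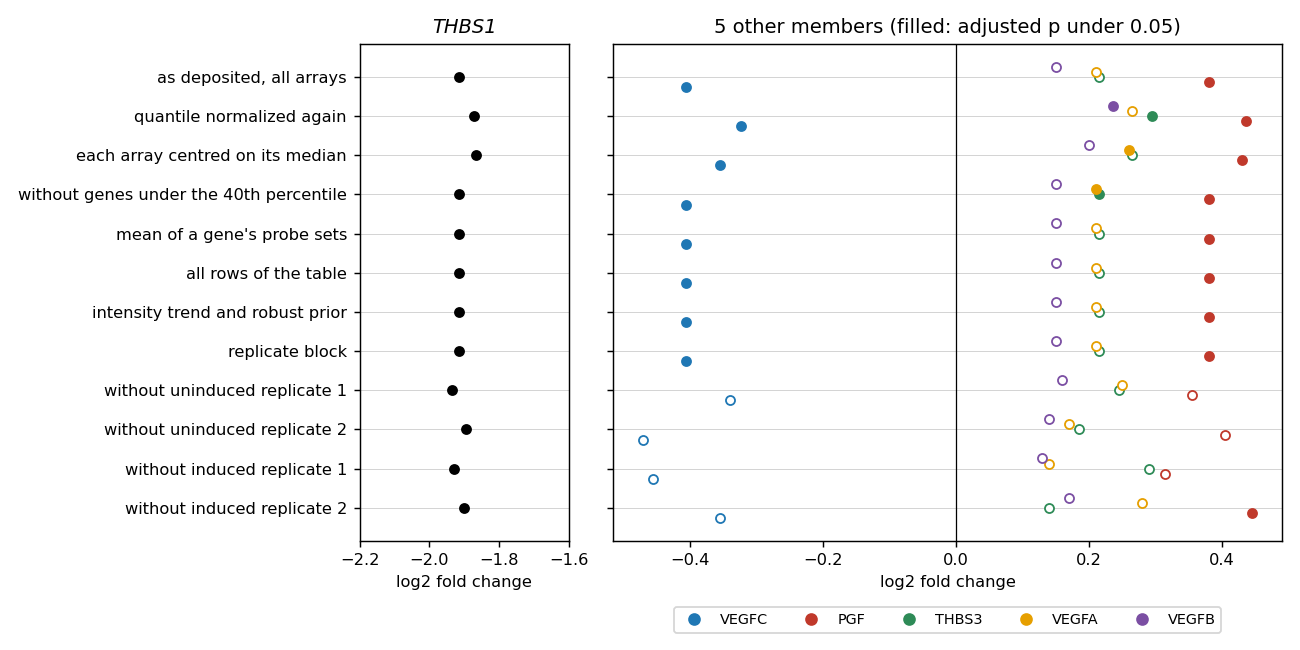
Log2 fold change (horizontal axes) of THBS1 (left) and of VEGFC, PGF, THBS3, VEGFA and VEGFB (right) under each setting (rows); filled points had an adjusted p under 0.05 in that setting and open points did not. THBS1 is filled in every row between -1.94 and -1.86, whereas VEGFC is open in all 4 rows that leave out an array.

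The receptors on the VEGF side changed in the co-receptors. NRP2, the neuropilin that binds VEGFC, rose from 7.53 and 7.67 to 8.17 and 8.23, or 1.52-fold (adjusted p = 0.00102 in limma's test), and NRP1, the neuropilin for VEGFA, from 7.56 and 7.79 to 8.22 and 8.15, or 1.42-fold (adjusted p = 0.00458 by limma). Of the 5 genes of this list these 2 rose and 0 fell, or 40% called beside 45.1% of all genes, with a median log2 fold change of -0.04. The tyrosine kinase receptors FLT1, KDR and FLT4 had values of -0.04, -0.10 and -0.20 and did not pass. Their levels, 4.46, 5.80 and 7.01 log2 units uninduced, were within the range of the markers of other cell types. So were the uninduced means of NRP2 and NRP1, 7.60 and 7.67 log2 units.

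Thrombospondin receptors and partners changed in both directions, 4 of 12 higher and 4 lower (66.7% called, beside 45.1% of all genes), with a median of -0.04. The list was bright, with a median uninduced mean of 10.04 log2 units against 7.73 over all genes. Without dim genes, 68.0% of all genes left were called, so the share of this list is near that of brighter genes. LRP1, the endocytic receptor that clears thrombospondins, rose from 7.94 and 7.99 to 9.74 and 9.84, or 3.54-fold (adjusted p = 3.4e-06 in limma's test). The integrin genes ITGAV and ITGB3, whose product binds the RGD motif of THBS1, rose by 0.81 and 0.58 on the log2 scale, and the syndecan gene SDC1 rose 1.59-fold. ITGA4, an integrin subunit that binds THBS1, fell from 8.99 and 9.14 to 7.04 and 7.20, or 3.85-fold (adjusted p = 4.7e-06 by limma). CD47, the receptor for the carboxyl end of THBS1, fell 1.61-fold, and the integrin gene ITGB1 fell by 0.58 on the log2 scale. ITGA6, another integrin gene, fell 1.24-fold, with an adjusted p of 0.0358 in limma's test. CD36 had group means of 3.83 uninduced and 4.08 induced, at the low end of the array, and did not pass.

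Genes of oxygen sensing, which set VEGFA transcription in low oxygen, rose in 4 of 8 and fell in 1 (62.5% called, beside 45.1% of all genes), with a median of 0.20. VHL, which marks HIF for degradation, rose 1.89-fold, and the HIF subunit genes ARNT, HIF1A and EPAS1 rose 1.65-fold, 1.56-fold and 1.28-fold. EGLN1, a prolyl hydroxylase that marks HIF for VHL, fell 1.18-fold. The adjusted p-values of EPAS1 and EGLN1 in limma's test, 0.0225 and 0.0466, were weaker than those of VEGFC and PGF. Of 11 genes induced by hypoxia in many cells, 3 rose and 5 fell (72.7% called), with a median of -0.15. The oxygen sensing and hypoxia lists had median uninduced means of 8.48 and 9.11 log2 units, against 7.73 over all genes. Without dim genes, 68.0% of all genes left were called. ANGPTL4, a secreted lipase inhibitor, fell 2.89-fold, from a mean of 8.96 to one of 7.42, and PDK1, a kinase that restrains pyruvate oxidation, fell 2.06-fold. ADM, the vasodilator adrenomedullin, rose 1.76-fold. The VEGFA value of 0.21 thus lay among hypoxia genes that went both ways.

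Of 13 other secreted angiogenic ligands, 3 rose and 2 fell, or 38.5% called beside 45.1% of all genes, with a median of -0.04. This list and that of inhibitors below were dim, with median uninduced means of 6.76 and 7.05 log2 units against 7.73 over all genes. PDGFC, a platelet-derived growth factor of the same cystine-knot superfamily as VEGF, rose 2.75-fold, from 8.54 and 8.56 to 9.97 and 10.05. FGF1 and FGF2, fibroblast growth factors, fell 3.07-fold and 1.69-fold. Inhibitors of angiogenesis other than thrombospondins rose in 7 of 16 and fell in 1, or 50.0% called beside 45.1% of all genes, with a median of 0.14. P4HA2, a collagen prolyl hydroxylase needed for antiangiogenic collagen fragments, rose 6.57-fold, from 8.72 and 8.80 to 11.45 and 11.50 (adjusted p = 8.5e-07 in limma's test). SERPINF1, pigment epithelium-derived factor, rose 1.99-fold from a dim level of 5.92 and 5.41, and ADGRB1, an adhesion receptor with thrombospondin repeats, rose 1.59-fold. THBS1, itself an inhibitor of angiogenesis, fell.

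Of 13 other matricellular genes, whose secreted proteins modulate cells without building the matrix, 1 passed the test (7.69%, beside 45.1% of all genes), CCN1, which rose 1.24-fold from 12.00 and 11.92 to 12.23 and 12.30. CCN2, its relative, had a log2 fold change of -0.01 (SE 0.081), POSTN one of 0.19 (adjusted p = 0.107 in limma's test) and SMOC2 one of -0.15 (adjusted p = 0.473 by limma). This list and the next were dim, with median uninduced means of 6.52 and 6.88 log2 units against 7.73 over all genes. Of 15 other listed genes with thrombospondin type 1 repeats, 4 rose and 0 fell (26.7% called), with a median of 0.10. ISM1, the angiogenesis inhibitor isthmin, rose 4.32-fold, from 6.38 and 6.37 to 8.59 and 8.38. The other 3 were THSD1 at 1.51-fold and THSD7A and THSD4, each at 1.38-fold. This list leaves out the ADAMTS proteases, which also carry such repeats and went both ways. ADAMTS1, ADAMTS3, ADAMTS6 and ADAMTS16 fell, ADAMTS3 with a log2 fold change of -2.375. ADAMTS4 and ADAMTS5 rose, ADAMTS5 with a log2 fold change of 0.745.

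Latent TGF-beta is activated by THBS1, and genes of that pathway changed in 10 of 11, 5 higher and 5 lower, or 90.9% called beside 45.1% of all genes, with a median of -0.10. The list had a median uninduced mean of 8.42 log2 units, and without dim genes 68.0% of all genes left were called. The ligand genes TGFB1, TGFB2 and TGFB3 fell 1.89-fold, 2.29-fold and 1.31-fold, and so did the receptor gene TGFBR2, 2.09-fold. LTBP2, a latent TGF-beta binding protein, rose 4.92-fold, from 8.10 and 8.14 to 10.44 and 10.40, and the receptor gene TGFBR1 rose 4.71-fold, from 8.44 and 8.40 to 10.64 and 10.67.

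Transcription factors known to act at THBS1 changed in 5 of 6 (83.3% called, beside 45.1% of all genes and 68.0% of those left without dim genes). EGR1, an immediate early factor whose site stands in the THBS1 window shown above, rose 6.75-fold, from 8.42 and 8.46 to 11.14 and 11.25 (adjusted p = 8.5e-07 in limma's test). MYC and ID1, both described as repressors of THBS1, fell 1.99-fold and 1.58-fold, and JUN and WT1 fell 1.45-fold and 1.43-fold. SP1, the GC box factor, had a log2 fold change of 0.02 (SE 0.083). Their part in the fall of THBS1 was not tested.

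**Figure D4:**
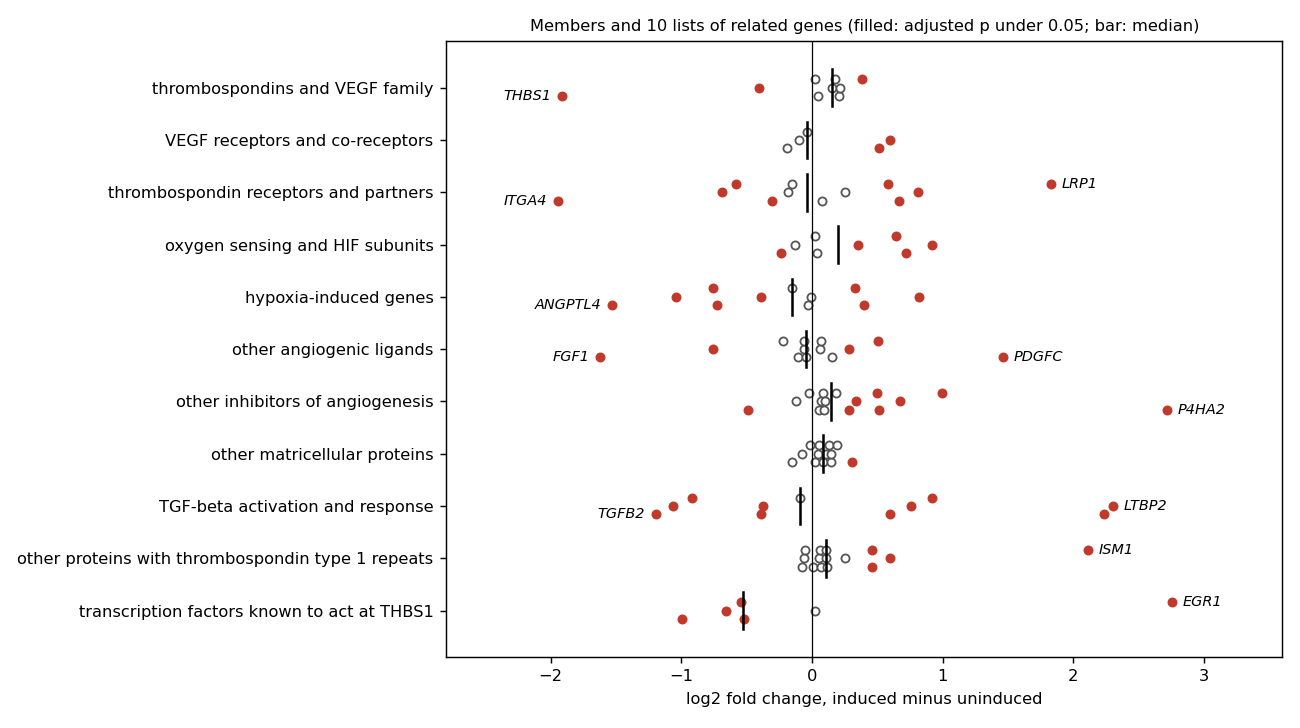
Log2 fold change (horizontal axis) of the 9 members and of each measured gene in 10 lists of related genes; filled red points had an adjusted p under 0.05, open points did not, and bars are medians. Among the members THBS1 lies at -1.92, while ISM1 at 2.11 and P4HA2 at 2.71 lead the lists of type 1 repeat proteins and of other inhibitors.

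The nearest measured gene on each side of each member in RefSeq's order was read for comparison. From 0 to 15 genes that were not measured lay between a member and such a neighbour. FSIP1, which follows THBS1, fell 1.33-fold (SE 0.13 on the log2 scale, adjusted p = 0.0378 by limma) at a dim level of 6.29 and 6.24 uninduced, and LINC02915, on its other side, did not pass (log2 fold change 0.14). SMOC2 and WDR27, around THBS2 with 15 and 6 unmeasured genes between, had log2 fold changes of -0.15 and -0.21 and did not pass. MUC1, a mucin gene before THBS3, fell 1.82-fold (adjusted p = 0.000942 by limma), while THBS3 did not pass. MTX1, which starts beside THBS3 on the other strand, read 9.23 and 9.06 uninduced and 8.97 and 8.85 induced and did not pass (adjusted p = 0.0922 by limma). VEGFC lay between SPCS3, a signal peptidase subunit gene that fell 3.29-fold, and NEIL3, a DNA glycosylase gene that fell 6.84-fold. Neither is adjacent to VEGFC, as 3 unmeasured genes lay between on each side. DNAJC4, before VEGFB, rose 1.68-fold, SERINC5, after THBS4, rose 5.39-fold and UPF1, after COMP, rose 1.91-fold, while those 3 members did not pass. The neighbours on their other sides, FKBP2 (0.23), MTX3 (-0.19) and CRTC1 (-0.05), and both neighbours of VEGFA, MRPS18A (-0.07) and LINC01512 (0.04), did not pass, with these log2 fold changes. EIF2B2 and RPS6KL1, the neighbours of PGF, had log2 fold changes of 0.21 and 0.24 and did not pass.

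The genes outside the lists with array values most like those of THBS1, each centred on its own mean, were the histone H4 genes H4C14 and H4C15 and the glycerol-3-phosphate acyltransferase gene GPAT3, at Euclidean distances of 0.030, 0.030 and 0.043 log2 units over 4 arrays. The 2 histone genes had identical values and near-identical sequences, so they count as 1 uncertain measurement. GPAT3 fell from 8.84 and 8.85 to 6.92 and 6.87. Outside the lists and the members, 88 genes lay within 0.2 log2 units of THBS1. The genes nearest to VEGFA, again outside the lists and the members, were DNAH10, AP1G2 and IGF2-AS, at 0.0087, 0.014 and 0.014. But 3509 such genes lay within 0.2 log2 units, so with 4 arrays the likeness to VEGFA singles out no gene.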

How the data were processed

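RNA was labelled with biotin and hybridised to a whole-transcript Affymetrix array, 1 array per sample, per the labels' protocols. The authors deposited log2 values made with Affymetrix Expression Console and RMA, per the submitters' processing notes; versions, settings and build were not given in the sources used here. RMA equalises the arrays' distributions, so a shift common to all transcripts cannot be seen. Depth on an array is not counted; the number of arrays limits the precision.

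Of 33297 rows, 19460 had 1 gene symbol, 1754 several and 12083 none; only the first were named, and the brightest probe set stood for a gene. Gene IDs of 19429 rows were found in RefSeq's GRCh38.p14 table. Induced and uninduced arrays, grouped by title, were compared with limma 3.58.1 in R 4.3.3 (lmFit, eBayes, no covariate, 7.20 total degrees of freedom), with Benjamini-Hochberg adjustment over all 18417 genes and a threshold of 0.05, and "rose" and "fell" mean past it. The fit was run on simulated data with independent noise and few changed genes, which checks the code and not the calls made here. Ranges of log2 fold change are over 11 alternatives. Lists are described by counts and medians, with no set test; 135 of 142 list genes were measured and the rest were not analysed here. Motifs were searched with Python 3.11.15.

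The members, lists and motifs were chosen with earlier results of these data known. The genes named were all members, CDKN1A and MDM2, and the 3 largest absolute changes of each list. The nearest measured neighbours and the 3 genes most like THBS1 and VEGFA were also named. Other list genes, such as CD36, CD47, ITGB3, EPAS1, CCN2, TGFB1 and JUN, were named after their values were seen. So were the ADAMTS genes and the cell type markers.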

Additional observations from a re-analysis of the deposited data

How the results depend on the processing

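The fall of THBS1 kept its direction and its call under all 11 alternatives. Over the 9 members, 81 values kept direction and side of the threshold, 7 lost the call (4 of VEGFC and 3 of PGF, all on leaving out an array) and 5 gained one (2 each of THBS3 and VEGFA and 1 of VEGFB). Leaving out 1 array moved THBS2 between -0.105 and 0.145 and COMP between -0.005 and 0.095, so that both, never called, turned sign. The count of members called was 3 as deposited, 5 after quantile normalization again, and 5 of the 6 members left without genes under the 40th percentile, where 68.0% of all genes left were called; the share of members called, below that of all genes as deposited, was above it in both settings. It lay between 1 and 2 when 1 array was left out, and that of all genes between 4959 and 6904, against 8311. With the replicate number as a block, 7820 genes and 3 members were called; same-numbered arrays deviated together over genes at r = 0.225, but with 2 arrays a group the titles' numbers do not establish a pairing, and the block changed no call of a member. The 3 members below the 40th percentile, THBS2, THBS4 and COMP, have no value without dim genes. Genes that are no members were not followed singly under the alternatives. No detection call was used, so levels near those of the off-tissue markers have no set lower limit.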
